A study of Mus musculus with 24 samples.

Results

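This account follows 8 genes of cholesterol synthesis, Acat2, Hmgcs1, Idi1, Fdps, Fdft1, Sqle, Hsd17b7 and Insig1, in the newborn brain and liver of cloned and control mice. They are 8 of the 27845 gene names on the array. They were found by name: every probe was taken whose printed gene name, or whose accession's current symbol, is one of the 8, which gave 15 probes. In newborn liver, Acat2 was higher and Hsd17b7 lower in mice recloned for 20 generations than in controls. In first-generation clones, Acat2 was higher and 6 of the other 7 members were lower, by up to 3.54-fold for Fdps, in the scanner values, where 41% of all genes were called. With another background correction (normexp) of those values, limma called 217 genes in all and 0 of 8 members. Of the members, 4 had an unadjusted p under 0.05. With so few genes called, 0 of 8 is not a result about the members. In the deposited expression matrix, 2 of the 8 members differed between those same arrays, both lower. There 19.3% of genes were called and 9.52% of those calls were higher, so the members' share is near that of all genes.

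The animals were newborn female mice whose background is labelled (C57BL/6 x DBA2) x 129/Sv. NC mice came from ICSI, the injection of a sperm into an egg, so the controls too were made in vitro. CC mice were clones made by transferring the nucleus of a cumulus cell, the somatic cell that surrounds the egg. G20 mice were somatic clones that had been recloned for 20 generations. Brain and liver were each measured in 4 mice per group, 1 array per sample, which gives 24 arrays. No drug, transgene or deletion is named for any group. All G20 samples carry 1 and the same source name, so how the 4 G20 mice relate to each other is not given. Nothing in the labels says whether the samples of a group came from separate litters, so a p-value measures only the spread between these samples.

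Cells build cholesterol from acetyl-CoA. Acat2, the cytosolic acetyl-CoA acetyltransferase, joins 2 acetyl-CoA units, and Hmgcs1 adds another. Further on, Idi1 isomerises the isoprene unit from which sterols are built, Fdps joins such units into farnesyl diphosphate, Fdft1 couples farnesyl diphosphate to squalene, Sqle oxidises squalene, and Hsd17b7 reduces a keto group of the later sterols. Most of these genes are targets of the transcription factor SREBP2, and Insig1 belongs to the brake: when sterols are plentiful, INSIG1 protein holds SREBP and its escort SCAP in the endoplasmic reticulum. The liver supplies the body with lipoprotein cholesterol, while the brain makes its own cholesterol behind the blood-brain barrier.

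The promoters of the members are shown here because the factors known to drive this pathway bind near the start of its genes. RefSeq's table (assembly GRCm38.p6) held an entry for 5 of the 8 members, and not for Fdps, Fdft1 and Sqle. Each sequence is the 250 bases before the annotated transcript start, written 5′ to 3′ on the gene's own strand, with motif matches in capitals. The positions are chr13:119690101-119690350 for Hmgcs1 (plus strand), chr1:169969206-169969455 for Hsd17b7 (minus), chr5:28071162-28071411 for Insig1 (plus), chr17:12960726-12960975 for Acat2 (minus) and chr13:8885356-8885605 for Idi1 (plus).
Hmgcs1: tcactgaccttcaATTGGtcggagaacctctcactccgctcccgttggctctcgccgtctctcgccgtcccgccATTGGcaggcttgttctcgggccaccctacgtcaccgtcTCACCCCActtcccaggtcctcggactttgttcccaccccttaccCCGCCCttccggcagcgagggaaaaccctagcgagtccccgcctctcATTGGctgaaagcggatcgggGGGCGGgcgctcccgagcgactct
Hsd17b7: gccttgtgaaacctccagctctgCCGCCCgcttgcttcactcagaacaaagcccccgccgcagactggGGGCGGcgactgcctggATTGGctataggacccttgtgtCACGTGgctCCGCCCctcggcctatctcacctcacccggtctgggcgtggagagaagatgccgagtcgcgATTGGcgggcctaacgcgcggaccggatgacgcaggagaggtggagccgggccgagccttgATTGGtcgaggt
Insig1: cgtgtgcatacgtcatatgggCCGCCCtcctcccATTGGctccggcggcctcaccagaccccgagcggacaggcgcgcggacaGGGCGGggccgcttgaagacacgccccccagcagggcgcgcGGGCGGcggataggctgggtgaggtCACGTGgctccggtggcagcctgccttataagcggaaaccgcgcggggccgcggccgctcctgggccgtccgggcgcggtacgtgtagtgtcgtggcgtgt
Acat2: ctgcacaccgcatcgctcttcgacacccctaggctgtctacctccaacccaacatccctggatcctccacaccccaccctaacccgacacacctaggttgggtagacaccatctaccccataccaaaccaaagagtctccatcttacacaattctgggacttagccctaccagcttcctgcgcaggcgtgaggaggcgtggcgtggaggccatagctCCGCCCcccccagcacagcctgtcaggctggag
Idi1: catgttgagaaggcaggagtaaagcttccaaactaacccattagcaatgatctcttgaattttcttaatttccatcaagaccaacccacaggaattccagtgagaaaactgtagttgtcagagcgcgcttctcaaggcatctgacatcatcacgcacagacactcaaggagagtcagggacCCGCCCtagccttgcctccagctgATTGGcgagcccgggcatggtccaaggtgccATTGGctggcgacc
Both strands were searched for 4 motifs, none of which overlapped another. A sterol regulatory element of the form TCACNCCA lay in 1 of the 5 promoters, Hmgcs1, at 137 to 130 bases before the start, against 3.67% of all 32851 promoters in the table. The E-box CACGTG, a site of the USF factors and also one that SREBP1 can bind, lay in Hsd17b7 (143 to 138 bases before the start) and Insig1 (101 to 96), against 6.02% of all promoters. The GC box GGGCGG, an Sp1 site, lay in 5 of 5, against 32.7%. The CCAAT box, to which NF-Y binds beside SREBP in many sterol genes, lay in 4 of 5, against 33.8%. Each match is a description of these letters, and binding was not measured.

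The arrays were 1-colour Agilent arrays, and a level here is the log2 of a probe's background-subtracted signal minus the log2 of that array's 75th percentile signal, so 0 is the 75th percentile of the array. "Called" means a Benjamini-Hochberg adjusted p under 0.05 in limma's moderated test, adjusted over all genes measured in the tissue. Errors after ± are SDs over 4 arrays, and SE is that of the fitted difference. Each of the 6 groups filled a slide of its own, and a slide effect and a group effect therefore cannot be told apart. The NC and G20 arrays of a tissue were scanned on the same day. All 8 CC arrays were scanned 221 days after the first arrays, and their spike-in response was flatter, with slopes of 0.814 to 0.887 against 0.929 to 1.02 on the other 16. The part of these differences in any result was not tested. Between 53.6% and 70.6% of probes were well above background on an array, and no member probe was saturated. G20 minus NC and CC minus NC share their NC arrays.

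The tissue labels were checked against marker lists. The summed linear level of 4 hepatocyte markers was 1038 to 1130 in NC livers and 941.6 to 1178 in G20 livers, and lower in CC livers, at 775.7 to 823.6. In brain, the sum over the list's 7 genes ran from 0.152 to 0.189 in NC mice, from 0.287 to 1.92 in CC mice and from 0.179 to 0.366 in G20 mice, and every CC brain was above every NC brain. These sums are near the floor: 3 of the 7 genes were well above background on all 4 brain arrays of any group. In NC brains 2 of the 7 were above it on no array, in CC brains also 2, and in G20 brains 4. In the deposited matrix, introduced with the CC comparison, the median CC minus NC difference of hepatocyte markers in brain was -0.09, against 2.24 in the scanner values. Summed neuron markers were 109.1 to 128.7 in the 12 brains. In liver they lay between 0.368 and 0.434 (NC), between 0.340 and 0.420 (G20) and between 0.612 and 2.06 (CC). There, 3 of the 6 neuron genes were well above background on all 4 arrays of any group. Markers of other cell types also stood apart without overlap. In liver, endothelial sums were 8.74 to 10.6 in G20, 11 to 11.9 in NC and 13.3 to 15.5 in CC, and stellate cell and fibroblast sums were 45.7 to 53.6 in G20, 56.3 to 66.3 in NC and 66.4 to 102.5 in CC. In brain, neural progenitor sums were 47.2 to 51.9 in CC against 28.8 to 35.0 in NC, and macrophage sums were 3.46 to 3.91 in CC against 2.39 to 2.57 in NC. The part of these shifts in the members' differences was not tested. In whole tissue, fewer cells of a type and less RNA per cell cannot be told apart.

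In liver, 2 of the 8 members were called between G20 and NC mice, where 7.07% of 16363 genes were called. Acat2, at the head of the pathway, stood at 1.41, 1.11, 1.17 and 1.58 in the 4 NC livers and at 1.90, 1.998, 2.24 and 2.28 in the 4 G20 livers. Every G20 liver was above every NC liver. The difference was 0.79 (SE 0.20, adjusted p = 0.0368), a level 1.73-fold higher in G20. The Acat2 probe's accessions also include Acat3, a near-identical neighbour on the same chromosome, and the pair cannot be told apart by this probe.

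Hsd17b7, the ketosteroid reductase of the late pathway, went the other way. It stood at 2.66, 2.40, 2.60 and 2.07 in NC livers and at 1.66, 1.72, 1.95 and 1.39 in G20 livers. The groups did not overlap, and the G20 level was 1.69-fold lower. The difference was -0.75 (SE 0.18, adjusted p = 0.0266). A second Hsd17b7 probe, in another place in the gene, gave -0.85 (adjusted p = 0.0195 over 24084 probes), again with no overlap. With normexp background correction, the first probe's difference was -0.35 (adjusted p = 0.318).

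Both calls are close to the threshold and rest on small groups. Acat2 kept its direction in every refit that left out 1 array of either group, but its adjusted p rose to between 0.0722 and 0.0977 without G20 replicate 2, 3 or 4 or NC replicate 1, 2 or 3, with differences of 0.72 to 0.83. Hsd17b7 lost its call without G20 replicate 2 or 4 or NC replicate 1, 2 or 3, with differences of -0.77 to -0.66 and adjusted p of 0.0619 to 0.0765. Acat2 was not called with median scaling (0.72, adjusted p = 0.0741) or with no filter on dim probes (adjusted p = 0.0532). In the deposited matrix both were called, Acat2 at 0.93 (adjusted p = 0.00818) and Hsd17b7 at -0.61 (adjusted p = 0.0436).

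Fdps, the enzyme that makes farnesyl diphosphate, had the lowest fitted difference of the 8 members in liver but too wide a spread to be called. The 4 NC livers lay close together at 5.02, 4.82, 4.75 and 4.90. The 4 G20 livers ran from 3.01 in replicate 1 through 3.80 and 3.81 in replicates 2 and 4 to 4.64 in replicate 3. All were below the lowest NC liver. The difference was -1.06 (SE 0.35, adjusted p = 0.0929), or 2.08-fold, and -0.98 (adjusted p = 0.0871 over probes) with the second Fdps probe. Without G20 replicate 3 it was -1.33 (adjusted p = 0.043).

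Sqle, the squalene epoxidase, was also lower in each G20 liver (3.41, 3.96, 3.95 and 3.72) than in any NC liver (4.13, 4.14, 4.05 and 4.09). With a difference of -0.34 (SE 0.22, adjusted p = 0.381) it was not called, and with normexp correction its sign turned (0.22). Insig1, the sterol sensor, read 2.14, 2.09, 2.38 and 2.55 in NC and 1.85, 1.81, 2.15 and 1.32 in G20. G20 replicate 3 fell inside the NC range, and the difference of -0.51 was not called (SE 0.18, adjusted p = 0.108). Fdft1, the squalene synthase, overlapped widely, with a difference of -0.30 (SE 0.20, adjusted p = 0.4) that turned to 0.20 with normexp correction.

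For Hmgcs1 and Idi1 the group means lay close together, which does not show that they are equal. Hmgcs1, the HMG-CoA synthase, averaged 5.60 ± 0.35 in NC and 5.62 ± 0.34 in G20 livers, a difference of 0.02 (SE 0.25, adjusted p = 0.981). Idi1 differed by 0.01 (SE 0.26, adjusted p = 0.983). Idi1 read 4.35, 4.23, 4.08 and 3.56 in NC livers and 3.58, 4.26, 4.24 and 4.19 in G20 livers, so each group had 1 low liver and 3 high ones. Over the 8 members, the median difference was -0.32, against 0.02 over all genes tested. With normexp correction the members' median was 0.21, so its sign depends on the background correction.

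**Figure D1:**
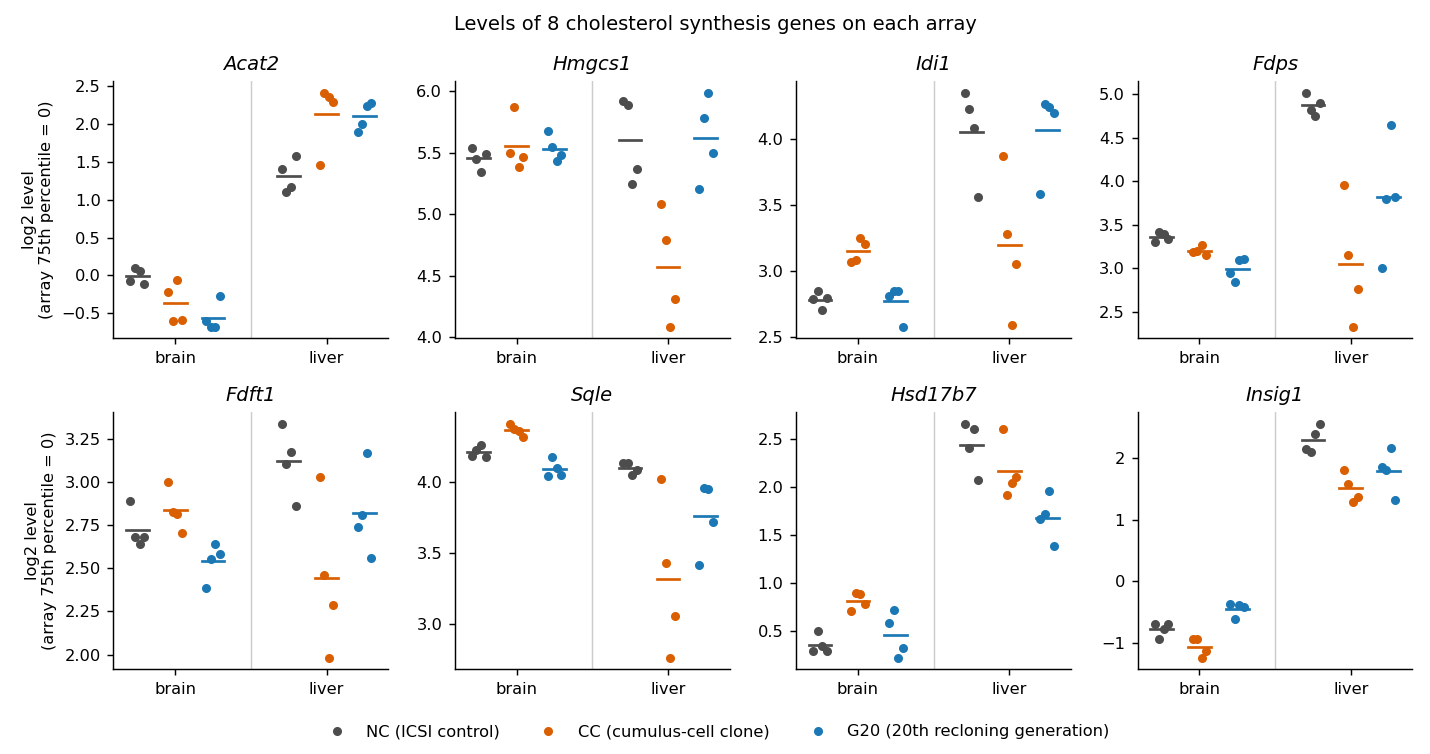
Level of each of the 8 members on every array, as log2 relative to the array's 75th percentile, by tissue and group (NC, CC, G20), with 4 points per group and a line at the group mean. In liver, Acat2 is above NC in both clone groups, Fdps is below NC in both, and points of CC and G20 livers are spread more widely than those of NC livers for Fdps and Sqle.

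In brain, 1 of the 8 members was called between G20 and NC mice, where 1.61% of 18298 genes were called. Fdps fell, from 3.30, 3.42, 3.39 and 3.33 in NC brains to 2.94, 2.84, 3.09 and 3.11 in G20 brains. The groups did not overlap. The difference was -0.37 (SE 0.07, adjusted p = 0.0319), a 1.29-fold lower level. The call was lost with normexp correction (adjusted p = 0.795), with no filter on dim probes (0.0739), with only the NC and G20 arrays in the fit (0.0864) and with the mean of the Fdps probes (0.151). Without G20 replicate 1 or 2 or any 1 NC replicate its adjusted p was 0.0577 to 0.0922, at differences of -0.39 to -0.31.

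Acat2, higher in G20 liver, had lower values in G20 brain. It read -0.07, 0.11, 0.05 and -0.11 in NC brains and -0.60, -0.67, -0.68 and -0.27 in G20 brains. No G20 brain reached the lowest NC brain, and the difference of -0.55 (SE 0.13) did not pass the threshold (adjusted p = 0.0645). Insig1 was higher in each G20 brain (-0.37, -0.61, -0.38 and -0.41) than in any NC brain (-0.69, -0.94, -0.77 and -0.69), and at 0.33 (SE 0.09, adjusted p = 0.0968) was not called either. The other 5 members overlapped between the groups. Their differences ran from -0.18 for Fdft1 to 0.10 for Hsd17b7, with adjusted p of 0.278 or more.

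Whether the G20 difference itself depended on tissue was tested as an interaction, the liver difference minus the brain difference. It was called for 3 of the 8 members, where 3.85% of 14764 genes measured in both tissues were called. Acat2 differed by 1.34 (SE 0.25, adjusted p = 0.00367), with a higher level in G20 liver and a lower one in G20 brain. Hsd17b7 differed by -0.86 (SE 0.21, adjusted p = 0.0233) and Insig1 by -0.83 (SE 0.20, adjusted p = 0.0238), both lower in G20 liver and higher in G20 brain on average. Acat2 was called in each of 16 refits that left out 1 array. Hsd17b7 lost its call without brain G20 replicate 2, liver G20 replicate 4 or liver NC replicate 1 (-0.78 to -0.76), and Insig1 without brain NC replicate 2 (-0.78, adjusted p = 0.0542). With normexp correction Hsd17b7 (-0.42) and Insig1 (-0.35) were not called.

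**Figure D2:**
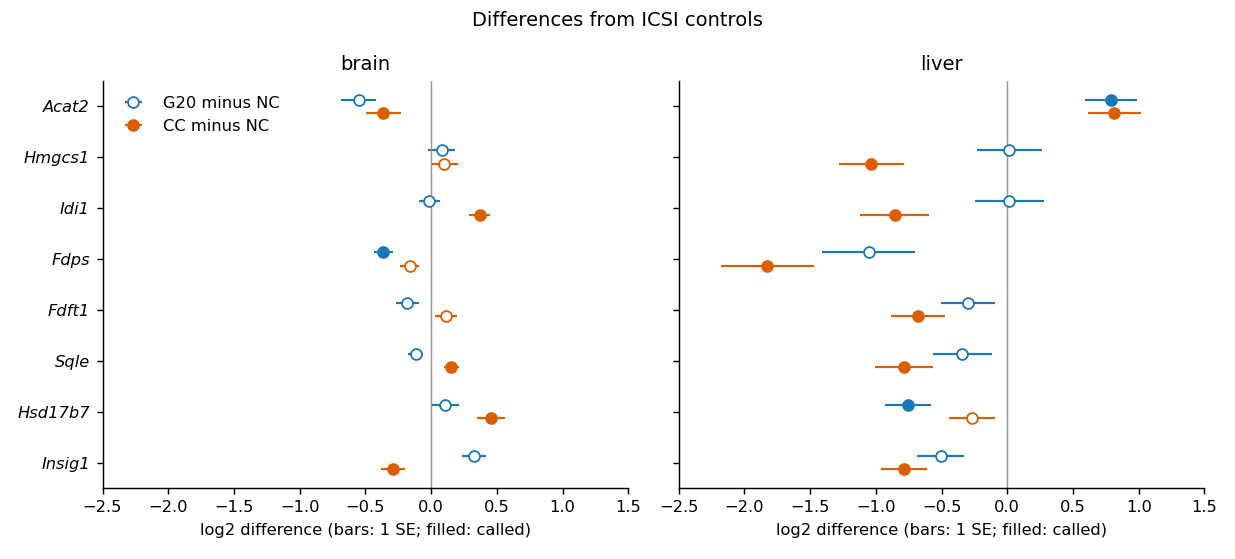
Log2 difference of each member, G20 minus NC and CC minus NC, in brain and liver, with bars of 1 SE and filled points for an adjusted p under 0.05. In the G20 comparison the filled points are Fdps in brain and Acat2 and Hsd17b7 in liver, and in the CC comparison in liver all members but Hsd17b7 are filled.

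Among the 4 CC livers, 6 of 8 members went up and down together from mouse to mouse in the scanner values as scaled here. This was tabulated after the values had been seen, and is a description with no test. Fdps in CC livers read 3.95, 3.15, 2.33 and 2.76 in replicates 1 to 4, a 3.08-fold range. Replicate 1 was highest and replicate 3 lowest. Hmgcs1 (5.09, 4.79, 4.09 and 4.31), Idi1 (3.87, 3.28, 2.59 and 3.05), Fdft1 (3.03, 2.46, 1.98 and 2.29), Sqle (4.02, 3.43, 2.76 and 3.06) and Insig1 (1.80, 1.57, 1.28 and 1.36) put the 4 CC livers in the same order as Fdps.

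Replicate 1 was the highest CC liver for 7 of 8 members, against 27.3% of all genes. Replicate 1 highest with replicate 3 lowest held for 6 of 8, against 9.12%. With normexp correction, replicate 1 was still highest for 7 of 8 members, but replicate 3 was lowest for 0 of 8. The shared order of all 4 livers therefore depends on the background correction. Acat2 ran against the others: CC replicate 1 was its lowest liver at 1.46, with 2.41, 2.36 and 2.29 in the rest. Hsd17b7 shared the high replicate 1 (2.60) but had its lowest value in replicate 2 (1.91). Of the other genes of cholesterol synthesis on the array, 13 of 15 were also highest in CC replicate 1. The genes share the 4 libraries, so their orders are not independent of each other.

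In NC and G20 livers, no order of the 4 mice was shared by more than 2 members. Replicate 1 was the highest NC liver for 5 of 8 members, against 24.1% of all genes, and for 8 of 15 other cholesterol synthesis genes. With normexp correction it was highest for 0 of 8 members. In G20, replicate 3 was highest for 5 of 8 members, against 25.9% of all genes, and for 14 of 15 other cholesterol synthesis genes and 13 of 14 genes of fatty acid synthesis. Fdps spanned 3.11-fold over the 4 G20 livers and Insig1 1.78-fold. In NC livers, by contrast, Fdps spanned 1.21-fold and Sqle 1.06-fold. Over the 8 members, the median SD was 0.22 in NC livers, 0.45 in CC livers and 0.29 in G20 livers, against 0.15, 0.18 and 0.16 over all genes.

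Erythroid markers, a sign of the blood-forming cells of newborn liver, were summed over the 6 of 9 genes with a value on every array. The sums ran from 141.6 to 160.2 in NC livers, from 128 to 143.7 in G20 livers and from 143.5 to 165.2 in CC livers. Gene by gene, the list was mixed: in G20 against CC, 6 of 9 were higher by value (median 0.19), with 2 called higher, the globins Hba-a1 (0.73) and Hbb-b1 (0.68), and 2 called lower. The median hepatocyte marker was highest in G20 replicate 3 (0.38) and lowest in CC replicate 3 (-0.55), which were also the G20 liver highest for most members and the CC liver lowest for most members. Elsewhere it did not follow the members. CC replicate 1, the highest for most members, was at -0.395, beside -0.418 in replicate 2 and -0.397 in replicate 4. NC replicate 4 had the highest NC marker median (0.206) and the members' lowest median deviation from the NC means (-0.127). The part of these levels in the order was not tested. In brain, the members' median SD was 0.09 in NC, 0.11 in CC and 0.12 in G20, below that of all genes (0.12, 0.14 and 0.15), and no order of the 4 mice was held by most members.

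**Figure D3:**
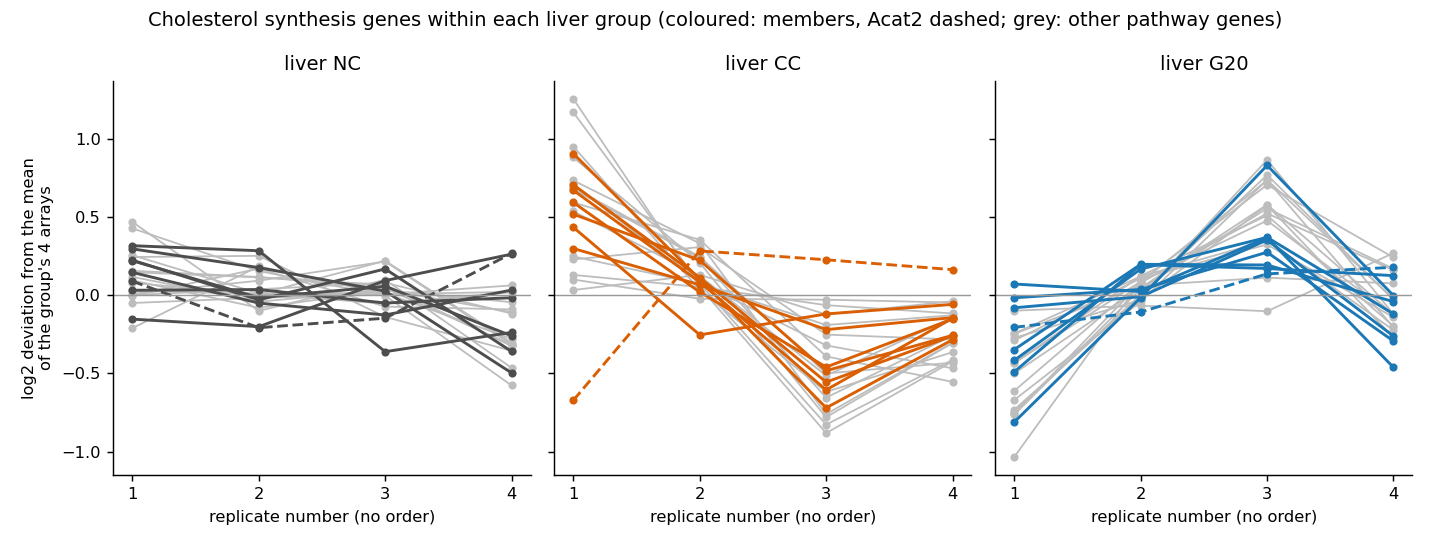
Deviation of each gene from its group mean (log2) in the 4 livers of NC, CC and G20, with the members in colour, Acat2 dashed and the other 15 genes of cholesterol synthesis in grey. Most coloured lines fall from CC replicate 1 to replicate 3 while Acat2 rises, and most lines peak at G20 replicate 3.

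For CC against NC in liver, 7 of 8 members were called in the scanner values, 1 higher and 6 lower, where 41% of 16364 genes were called. Fdps was lower in every CC liver than in any NC liver, with a difference of -1.82 (SE 0.35, adjusted p = 0.00169), or 3.54-fold. Hmgcs1 fell by 1.03 on the log2 scale (SE 0.25, adjusted p = 0.00596), or 2.05-fold, from 5.92, 5.89, 5.24 and 5.37 in NC. Sqle (-0.79, adjusted p = 0.0153) and Insig1 (-0.79, adjusted p = 0.00438) were each 1.72-fold lower. For Fdps, Hmgcs1, Sqle and Insig1 the CC and NC livers did not overlap. The share of all genes without overlap is not given here.

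Idi1 (-0.86, adjusted p = 0.0218) and Fdft1 (-0.68, adjusted p = 0.0202) also fell, with CC replicate 1 inside the NC range for both. Without CC replicate 3 or 4 or NC replicate 1, neither was called (Idi1 -0.81 to -0.65, Fdft1 -0.63 to -0.53), and Idi1 was also not called without NC replicate 2. Acat2 rose by 0.82 (SE 0.20, adjusted p = 0.00704), though CC replicate 1 lay among the NC livers. Hsd17b7 differed by -0.27 (adjusted p = 0.241) by its first probe and by -1.21 (adjusted p = 0.000349 over probes) by its second, so its probes give different answers here. The median over the members was -0.79, against 0.04 over all genes.

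The deposited expression matrix gave other differences for the same arrays. For NC and G20, its log2 values followed the scanner values closely on each array (r of 0.9999 or more, slopes of 0.9909 to 1.019). For the 8 CC arrays, each probe carried an offset of its own, nearly the same on the 4 CC arrays of a tissue (r of 0.993 or more in liver) and different between brain and liver (r = 0.243). No source used here gives the step that made this offset. Offsets are given relative to the median offset of the array. In liver it added 1.24 to Hmgcs1, 1.12 to Idi1, 1.05 to Fdps, 0.66 to Sqle, 0.53 to Fdft1 and 0.47 to Insig1 on the log2 scale, and took 0.19 from Acat2 and 0.36 from Hsd17b7.

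In the matrix, scaled in this way, 2 of 8 members were called in liver between CC and NC, where 19.3% of 14234 genes were called. These were Hsd17b7 (-0.83, adjusted p = 0.0115) and Insig1 (-0.52, adjusted p = 0.0473), both lower. Fdps remained lower by value (-0.96, adjusted p = 0.0759). Hmgcs1 (0.03) and Idi1 (0.07) turned sign and lay near 0, and Acat2 was at 0.42 (adjusted p = 0.116). With normexp correction of the scanner values, under which 217 genes and no member were called, Fdps stood at -1.70 (adjusted p = 0.106). An offset shared by the 4 CC arrays leaves the order of the CC livers as it is, while normexp correction changed which was lowest for most members. Over all genes, the share of calls that were higher in CC was 50% in the scanner values and 9.52% in the matrix.

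**Figure D4:**
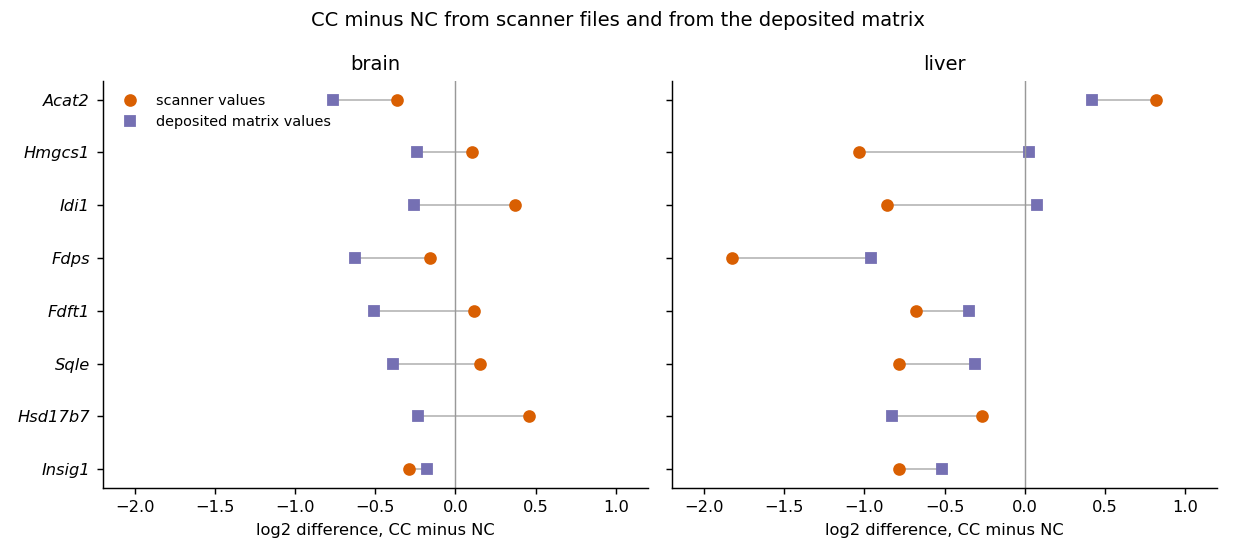
CC minus NC difference (log2) of each member from the scanner values and from the deposited matrix, in brain and liver. In liver, Hmgcs1 moves from -1.03 to 0.03 and Idi1 from -0.86 to 0.07, while Fdps stays below -0.9 in both.

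In brain, 5 of 8 members were called between CC and NC, where 69.4% of genes were called, so the members' share is not above that of all genes. Idi1 (0.37, adjusted p = 0.00111), Sqle (0.15, adjusted p = 0.033) and Hsd17b7 (0.46, adjusted p = 0.00204) rose. Acat2 (-0.36, adjusted p = 0.0288) and Insig1 (-0.29, adjusted p = 0.0147) fell. Acat2 lost its call without CC replicate 2 or 4 or NC replicate 2 or 3 (-0.34 to -0.28), and Sqle without CC replicate 1, 2 or 3 or NC replicate 1, 2 or 4 (0.14 to 0.16).

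In the deposited matrix, after the scaling given above, 5 of the 8 members had the opposite sign in brain. These were Hmgcs1 (-0.24), Idi1 (-0.26), Fdft1 (-0.51), Sqle (-0.39) and Hsd17b7 (-0.23). In that order, the mean offsets of these probes on the CC brain arrays were -0.06, -0.35, -0.35, -0.27 and -0.43. For Hmgcs1, Idi1 and Hsd17b7 they are smaller in size than the scanner differences (0.10, 0.37 and 0.46). Those signs therefore turned only with the added shift of the scaling, and are not a result of the offsets alone. For Fdft1 and Sqle the offsets are larger than the scanner differences (0.11 and 0.15). A fit of the matrix without the scaling was not run. There 5 members fell (Acat2, Idi1, Fdps, Fdft1 and Sqle), where 23.1% of genes were called. Acat2 was lower in both sources (-0.77 in the matrix, adjusted p = 0.00228), and so was Fdps (-0.16 and -0.63), which was called in the matrix alone. The second probes of Idi1 (-0.38) and Hsd17b7 (-0.38) also had the opposite sign to the first. Over all genes, the share of brain calls that were higher in CC was 60.6% in the scanner values and 1.83% in the matrix.

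Between the clone groups, 3 of 8 members were called in liver, where 45.6% of genes were called. Hmgcs1 was higher in each G20 liver (5.20, 5.79, 5.99 and 5.50) than in any CC liver, by 1.05 (SE 0.25, adjusted p = 0.00479). Idi1 was higher by 0.87 (adjusted p = 0.0181) and, without CC replicate 3, by 0.67 (adjusted p = 0.0514). Hsd17b7 was lower, at -0.48 (adjusted p = 0.0411), a call lost without CC replicate 1, 3 or 4 or G20 replicate 1, 2 or 4 (-0.52 to -0.34). Leaving out CC replicate 1 instead added calls for Fdps (1.07), Fdft1 (0.58) and Sqle (0.68), Fdps was also called without G20 replicate 1 (1.04), and Insig1 was called without G20 replicate 4 (0.43). In the matrix, none of the 3 liver calls held: Hmgcs1 was at 0.14 (adjusted p = 0.613), Idi1 at 0.081 (adjusted p = 0.79) and Hsd17b7 at 0.22 (adjusted p = 0.298), and Acat2 was called instead (0.51, adjusted p = 0.0478). In brain, 6 of 8 were called, where 67.6% of genes were called, with Insig1 higher in G20 (0.61, adjusted p = 9.46e-05) and Idi1, Fdps, Fdft1, Sqle and Hsd17b7 lower. Fdps there (-0.20) was not called without CC replicate 3 or G20 replicate 1 or 2 (-0.19 to -0.15), and in the matrix Idi1 (0.21), Fdps (0.22), Fdft1 (0.30), Sqle (0.22) and Hsd17b7 (0.33) had the opposite sign.

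The members' levels also differed between the tissues of control mice. In NC mice, 6 of 8 were called, all lower in brain than in liver, where 87.9% of genes differed. Insig1 differed most, by -3.06 (adjusted p = 4.88e-15) or 8.34-fold, then Hsd17b7 by -2.07 (adjusted p = 9.5e-12) or 4.21-fold. Fdps (-1.51), Acat2 (-1.32) and Idi1 (-1.27) followed by size, and whether they differ from each other was not tested. Fdft1 was lower by 0.40 in brain (adjusted p = 0.0261), a call lost without brain NC replicate 2, 3 or 4 or liver NC replicate 1 or 3 (-0.38 to -0.32), and its sign turned with normexp (0.30) and quantile normalization (0.19). Hmgcs1 (-0.15, adjusted p = 0.473) and Sqle (0.11, adjusted p = 0.537) did not pass the test.

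In CC mice the tissue pattern was another one in the scanner values. There 6 of 8 differed, 3 in each direction, where 84.8% of genes did. Hmgcs1 (0.99, adjusted p = 7.81e-05), Sqle (1.05, adjusted p = 5.33e-06) and Fdft1 (0.40, adjusted p = 0.0276) were higher in brain, and Acat2 (-2.50), Hsd17b7 (-1.35) and Insig1 (-2.56) lower. Fdft1 was not called without brain CC replicate 1 or liver CC replicate 3 or 4 (0.24 to 0.35). The CC minus NC difference itself differed between the tissues for 8 of 8 members, where 54% of genes did. With quantile normalization 5 of 8 were called, among 8076 genes in all. With normexp correction limma called 0 of 8, among 1653 genes in all, with 2 members at an unadjusted p under 0.05. At the main setting, the CC minus NC difference was higher in liver for Acat2 (1.18, adjusted p = 0.000428). It was lower in liver for the other 7, from -1.66 for Fdps (adjusted p = 0.000796) to -0.50 for Insig1 (adjusted p = 0.0437). Insig1 lost that call in 8 of 16 refits, without brain CC replicate 1 or 2, brain NC replicate 2 or 3, liver CC replicate 3 or 4, or liver NC replicate 3 or 4 (-0.50 to -0.41).

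Other genes of the same pathway were given by a list that also covers the later sterol enzymes. In G20 against NC liver, 1 of its 15 measured genes was called, Ggps1, which makes geranylgeranyl diphosphate and rose (0.39, adjusted p = 0.0487). By value, 12 of 15 were lower in G20, with a median of -0.46. Sc5d, a late desaturase, stood at -1.05 (adjusted p = 0.0802). With normexp correction the list's median was -0.05. In CC against NC liver, 11 of 15 fell and Ggps1 rose, where 20.5% of all genes were called lower and 20.5% higher. The list's median was -0.87, and those that fell included the sterol demethylase Cyp51 (-1.54), the kinase Pmvk (-1.33) and Nsdhl (-1.24). In the deposited matrix 3 of the list were called, all lower, with a median of -0.49. There 19.3% of all genes were called, and 9.52% of those calls were higher, so the list's share is near that of all genes.

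In G20 liver, a few genes of the sensing, uptake and disposal of cholesterol were called, against the 7.07% of all genes. Of 13 genes of the SREBP system, the oxysterol receptor Nr1h3 fell (-0.66, adjusted p = 0.00449) and Erlin1, a protein of the endoplasmic reticulum, rose (0.37, adjusted p = 0.0464). Srebf2 stood at -0.13 (adjusted p = 0.603) and Srebf1 at -0.53 (adjusted p = 0.119). Of 10 uptake genes, 1 fell, Lipa, the lysosomal lipase that frees cholesterol from its esters (-0.64, adjusted p = 0.0266). Of 14 genes of efflux, esterification and bile acids, Soat2, which esterifies cholesterol in liver, rose (1.52, adjusted p = 0.0164) and Cyp39a1, an oxysterol hydroxylase, fell (-0.70, adjusted p = 0.0167).

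Genes of fatty acid synthesis, which SREBP1 controls, were given by another list. In G20 against NC liver, 8 of its 15 genes were called, all lower, where 3.09% of all genes were called lower, with a median of -1.46, led by Thrsp, a lipogenic regulator (-5.04, adjusted p = 0.00329), the desaturase Scd1 (-2.78, adjusted p = 0.0352), the carboxylase Acacb (-2.35, adjusted p = 0.00664) and the elongase Elovl5 (-1.68, adjusted p = 0.0181). The difference between this list and the members was not tested. In CC liver, 8 of 15 fell, with a median of -0.71, where 20.5% of all genes were called lower. In the matrix 10 of 13 fell, where 19.3% of all genes were called, and 9.52% of those calls were higher. Of the uptake genes in CC liver, 6 of 10 fell in the scanner values, against the same 20.5% of all genes. Among them was Npc1, which moves cholesterol out of lysosomes (-0.57).

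**Figure D5:**
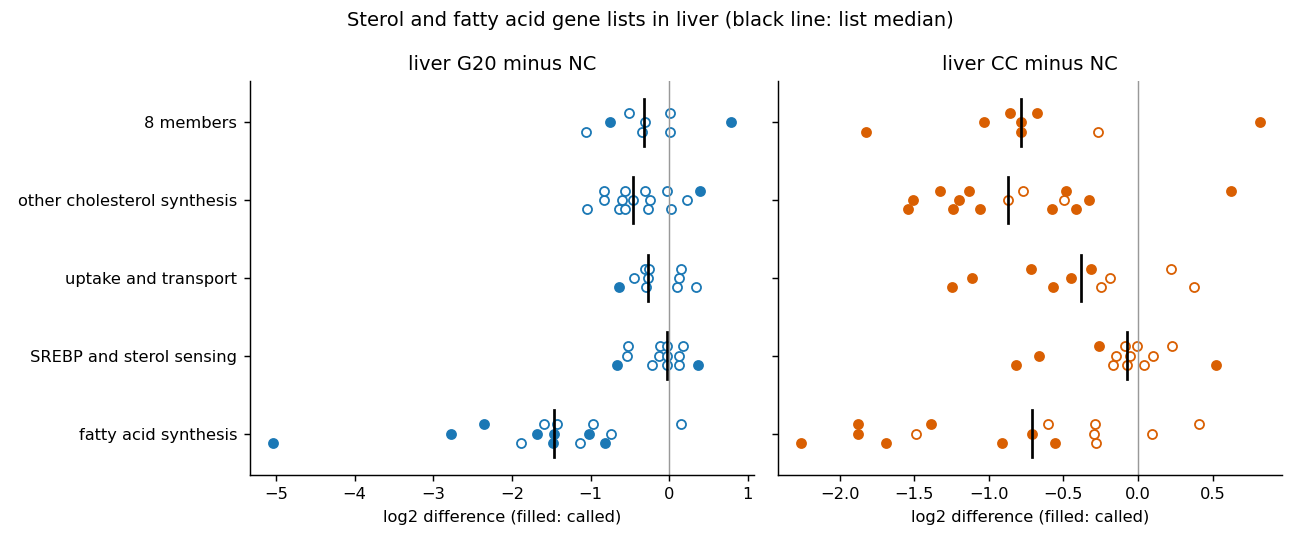
Log2 difference of each gene in liver, G20 minus NC and CC minus NC, for the members and the other lists, with filled points for an adjusted p under 0.05 and a black line at each list's median. The fatty acid list reaches lowest in G20 liver (Thrsp at -5.04), and the other cholesterol synthesis genes have most filled points below 0 in CC liver.

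Several members had more than 1 probe, and these bear on how far a value can be read as the gene's. Acat2 and Sqle had 1 probe each, Hmgcs1 3 and the other 5 genes 2. All 15 were measured in brain and 14 in liver. In the files' annotation (mouse build mm8), the Acat2 probe lies at chr17:12786563-12786622 and the Sqle probe at chr15:59160510-59160569. The Hsd17b7 probes lie at chr1:171789135-171789194 and chr1:171786747-171786806, and the first Fdps probe spans chr3:89180817-89180957. Both Idi1 probes are placed on chromosome 2 in that annotation, while the RefSeq promoter of Idi1 is on chromosome 13, and the probes' positions were not checked against a genome here. Exon and UTR were not assigned, for want of an annotation of that build. The second Fdft1 probe was well above background on 2 NC livers and 0 clone livers, and was left out there. In CC against NC liver, the second probes of Fdps (-1.76, adjusted p = 0.00111), Idi1 (-0.84, adjusted p = 0.0204) and Insig1 (-0.66, adjusted p = 0.0259) gave the direction of the first. The other Hmgcs1 probes gave -0.55 (adjusted p = 0.372) and -1.83 (adjusted p = 4.07e-05). Over the 14 liver probes, CC replicate 1 was highest in 12.

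The genes whose levels followed the members' median profile most closely were found by the root mean square difference over the 12 arrays of a tissue. In liver, these included Wdr44 (0.148), Tor1a (0.158) and Nt5c (0.165). In brain, they were Ssna1 (0.0251), Angel2 (0.0434), Rfxap (0.0474), Ggps1 (0.0507) and Cenpt (0.0521). Of these, Ggps1 is in the pathway list. Several members were themselves far from the median profile. Their ranks by this distance ran from 1 (Fdft1) to 15022 (Acat2) of 16223 genes in liver. In brain they ran from 22 (Sqle) to 10919 (Insig1) of 18192.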

How the data were processed

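Gene expression was measured in 24 brain and liver samples on Agilent 1-colour arrays, from 0.5 ug of RNA labelled with Cy3 per the labels' protocols, and scanned with Agilent Feature Extraction 9.5.3.1 per the submitters' processing notes. Per the file headers, the deposited scanner files hold background-subtracted intensity per spot and other columns of 0 or 1 flags (well above background, saturated, outlier). The deposited matrix holds linear intensity for 34140 probes, and no source used here gives its scaling. Its median log2 intensity per array was 7.805 to 8.934.

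Of 43379 spots, control spots and outlier flags were left out and spots of 1 probe averaged, which left 41174 probes with 27845 gene names. The log2 of the intensity minus that of the array's 75th percentile was analysed. Within a tissue, probes entered where 1 or more groups had them well above background on each of their 4 arrays, and a gene was read from its probe with the highest mean. Groups were compared with limma 3.58.1 (R 4.3.3, package data.table version 1.17.8), with Benjamini-Hochberg adjustment over all genes, one fit per tissue and one over both tissues for tissue contrasts. The scripts were tested on simulated data. Figures used Python 3.11.15 and matplotlib 3.10.9. Precision is limited by the 4 arrays per group.

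All 8 members were named. Of each other list, up to 4 called genes with the largest difference in a comparison were named, plus Sc5d, Srebf1 and Srebf2, chosen after their values were seen, and the 5 genes nearest to the members' profile in each tissue, of which those with an accession for a name were left out. Some listed genes are not reported here. The members, lists and tests were chosen with earlier results of these data known. Alternatives were normexp background correction with an offset of 50, median scaling, quantile normalization, no filter, only the groups compared, a replicate block, every probe, the mean of probes, the deposited matrix and leaving out each array. Equal replicate numbers did not pair arrays within a tissue (r of deviations from -0.119 to 0.133 in brain and from -0.229 to 0.0804 in liver).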

Additional observations from a re-analysis of the deposited data

Results flagged for a closer look

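In 4 of 48 groups of 4 arrays (8 members by 6 groups), 1 array stood far from the other 3 by Dixon's test, which chance gives in about 1 of 20 groups. Acat2 in liver CC replicate 1 was 1.46, against 2.29 to 2.41 on the others. Idi1 in liver G20 replicate 1 was 3.58, against 4.19 to 4.26. Idi1 in brain G20 replicate 4 was 2.58, against 2.81 to 2.85. Insig1 in brain G20 replicate 2 was -0.61, against -0.41 to -0.37.

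The G20 minus NC difference differed between liver and brain by the interaction test for Acat2 (1.34), Hsd17b7 (-0.86) and Insig1 (-0.83). The CC minus NC difference differed between the tissues for all 8 members in the scanner values: Acat2 (1.18), Hmgcs1 (-1.13), Idi1 (-1.23), Fdps (-1.66), Fdft1 (-0.79), Sqle (-0.94), Hsd17b7 (-0.73) and Insig1 (-0.50). With normexp correction of those values limma called 1653 genes in all and 0 of the 8, with 2 members at an unadjusted p under 0.05. Each tissue and group was on a slide of its own, so slide, tissue and group cannot be told apart here.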

How the results depend on the processing

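Over 80 member results and their alternatives, 1130 values kept direction and side of the threshold, 58 with no call moved, 129 lost a call, 17 gained one and 26 turned sign. Counts below are genes called by limma, then members. With normexp correction, brain G20 minus NC had 2 genes and 0 members (2 at an unadjusted p under 0.05), brain CC minus NC 5341 and 0 (1), brain G20 minus CC 3710 and 0 (1), liver G20 minus NC 5134 and 1, liver CC minus NC 217 and 0 (4), liver G20 minus CC 2281 genes, the tissue difference of CC minus NC 1653 and 0 (2), and that of G20 minus NC 1 member. In the deposited matrix, brain CC minus NC had 3769 genes, brain G20 minus CC 5547, liver G20 minus NC 2064, liver CC minus NC 2741 and 2 members, and liver G20 minus CC 4746 and 1. With no filter, brain G20 minus NC had 135 and 0 (3), brain CC minus NC 20255, brain G20 minus CC 19773, liver G20 minus NC 1 member, liver CC minus NC 10382 and liver G20 minus CC 14810. With every probe, brain G20 minus CC had 18562 calls. With only the groups compared, brain G20 minus NC had 150 and 0 (3). With the mean of probes it had 0 members (2), and brain CC minus NC had 3. With quantile normalization, brain G20 minus CC had 3 members and the tissue difference of CC minus NC 5. With median scaling, liver G20 minus NC had 1.

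With the replicate block, brain G20 minus NC had 149 genes and 0 members (3), brain CC minus NC 3 members, and liver G20 minus NC 711 and 1, without Acat2 (adjusted p = 0.0512). With the animal number as a replicate block (correlation 0.148), 984 genes had a tissue difference of G20 minus NC. The block changed no other count of genes by over 1.5 times.

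Leaving out 1 array at a time gave 120 to 516 genes and 0 to 1 members in brain G20 minus NC, 12017 to 12413 and 3 to 4 in brain CC minus NC, 11686 to 12351 and 5 to 6 in brain G20 minus CC, 577 to 1131 and 0 to 2 in liver G20 minus NC, 5639 to 6696 and 5 to 7 in liver CC minus NC, 6357 to 7478 and 1 to 5 in liver G20 minus CC, 12795 to 12875 and 5 to 6 in NC brain minus liver, 12311 to 12398 and 5 to 6 in CC brain minus liver, 400 to 706 and 2 to 3 in the tissue difference of G20 minus NC, and 7572 to 8064 and 7 to 8 in that of CC minus NC.

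These values turned sign. In brain CC minus NC, Hmgcs1 was -0.55 with quantile normalization and -0.91 with the mean of probes, Idi1 -0.0046 with the mean and -0.26 in the matrix, Fdft1 -0.20 with quantile and -0.51 in the matrix, Sqle -0.19 with normexp, -0.30 with quantile and -0.39 in the matrix, and Hsd17b7 -0.23 in the matrix. In brain G20 minus CC, Hmgcs1 was 0.53 with quantile and 0.59 with the mean, Fdps 0.084 and Sqle 0.11 with quantile, and in the matrix Idi1 was 0.21, Fdps 0.22, Fdft1 0.30, Sqle 0.22 and Hsd17b7 0.33. In the matrix, Hmgcs1 was 0.025 and Idi1 0.073 in liver CC minus NC, and Acat2 0.51 and Hsd17b7 0.22 in liver G20 minus CC. In NC brain minus liver, Hmgcs1 was 1.56 with quantile, and Fdft1 0.30 with normexp and 0.19 with quantile. The cause was not tested. Over all genes, the share of liver G20 minus NC calls that were higher was 56.4%, and 83.7% in the matrix, 33.7% with median scaling and 15.9% with normexp. The median of all genes in brain CC minus NC was 0.14, and 0.28 with median scaling, 0.40 with normexp and -0.16 in the matrix.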
